A study of Rattus norvegicus with 144 samples.

Results

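The dorsal striatum (STR) of HIV-1 transgenic (HIV-1Tg) rats was compared with that of F344 rats, the background strain, with saline- and nicotine-treated rats pooled and drug kept as a factor. The comparison holds 48 of the 144 libraries of the series, 24 from HIV-1Tg and 24 from F344 rats, and these were chosen by the strain, region, and drug that the labels give. Of 39078 transcripts in the STR tables that matched the Ensembl annotation exactly, 14012 were tested. These had an FPKM (the number of fragments scaled to transcript length and to the mapped fragments of the library) above 0.01 in 6 or more of the 12 rats in each of the 4 groups. After adjustment, 12 transcripts differed between the strains, and all 12 were lower in HIV-1Tg rats. This count ran from 9 to 38 with 1 library left out. It was 401 with outlying values removed (102 higher in HIV-1Tg rats), 41 in an ANOVA per transcript (7 higher), and 7 with median scaling (2 higher). Of the 12 transcripts, a single one was below the adjusted threshold in saline rats and again, separately, in nicotine rats.

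In the HIV-1Tg rat the provirus lacks gag and pol and cannot replicate, and its own promoter drives the remaining viral genes. The rat is used as a model of long exposure to viral proteins in infection that is under treatment. The dorsal striatum is the input nucleus of the basal ganglia, is made up mostly of GABAergic projection neurons, receives dense dopaminergic input, and serves movement and habit learning. It is among the brain regions known to be affected in neurological disease of people with HIV, and nicotine acts there through receptors on dopaminergic terminals and interneurons.

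Adult male rats of both strains, all with earlier use in a behavioral study, received nicotine (HIV_Nic and F344_Nic) or saline (HIV_Sal and F344_Sal), with 12 rats in each of the 4 groups. Each rat had 2 subcutaneous injections daily over 17 days, and nicotine was given as a 0.25 mg/ml solution at 1 ml/kg. RNA came from bilateral punches of dorsal striatum, so each library mixes all cell types of the punch, and fewer cells of a type cannot be told apart from less RNA per cell. The transgene has no place in the rat annotation used for these tables, so the strain label has no transcript here to check it against. The tables give transcript identifiers without gene names. The paper drew its gene annotation from Ensembl by these identifiers, and that annotation was not used here. Marker genes of striatum or of other cell types were therefore not looked up, the tissue label was not checked against them, and no function is given for the transcripts below.

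Read numbers per library are not in the tables, so relative depth was taken from the ratio of base coverage to FPKM. It ranged from 1.64 to 2.34 with a median of 2.09 in F344 rats, and from 1.99 to 3.52 with a median of 2.34 in HIV-1Tg rats. Depth thus moved with strain. Libraries F344_Sal rat 10 and HIV_Sal rat 6 lay apart from the rest, with median correlations to the other 47 libraries of 0.756 and 0.75, and the count of strain differences rose from 12 to 21 without both. No pair of libraries was a duplicate: the highest correlation was 0.814, and at most 3.65% of values were equal within 1e-06.

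The 12 called transcripts are 0.0856% of those tested, at a Benjamini-Hochberg adjusted p under 0.05 in limma on log2(FPKM + 0.1). They are numbered here from 1 to 12 in the order of their adjusted p. None was higher in HIV-1Tg rats by this rule. Both the count and its direction depended on single libraries: without F344_Sal rat 10 it was 38, 6 of them higher in HIV-1Tg rats, and without F344_Sal rat 9 it was 32, 4 of them higher. The mean of the 12 in F344 rats ran from 1.12 FPKM to 334 FPKM, and the difference ran from 10.1% to 58.3% lower. For 11 of the 12, the called transcript was the sole annotated isoform of its gene, as it was for 68.8% of all transcripts tested. All 12 had a value above 0 in every one of the 48 libraries, whereas 57.9% of tested transcripts were at 0 in at least 1 library.

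The clearest difference was that of ENSRNOT00000048926, called transcript 1, of 780 bases. Its level in F344 rats was 15.1 ± 1.88 FPKM (SD, n = 24), with a lowest value of 11.2, a median of 15.4, and a highest of 18.1. In HIV-1Tg rats it was 6.9 ± 1.09 FPKM (SD, n = 24), with a lowest value of 4.78, a median of 7.03, and a highest of 8.8. The strains did not overlap: every HIV-1Tg rat was below every F344 rat. Such a separation with the HIV-1Tg rats lower was found for 1 of the 14012 transcripts (0.00714%), and with the HIV-1Tg rats higher for 0. The log2 difference was -1.12 (SE 0.0645), or 54.1% lower, with an adjusted p of 1.13e-17 in limma.

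ENSRNOT00000048926 was also the 1 transcript whose difference held in both drug groups after adjustment. This count was 2 without any of F344_Nic rat 9, HIV_Nic rats 2 or 10, or HIV_Sal rats 1, 8, or 12. It was also 2 with a pseudocount of 1, a mean FPKM of at least 1, an ANOVA per transcript, or a factor for rats 1 to 6 and 7 to 12, and it was 10 with outlying values removed. In saline rats its median was 15.9 FPKM in F344 and 6.91 FPKM in HIV-1Tg, a log2 difference of -1.26 (SE 0.0912) with an adjusted p of 9.33e-14 in limma. In nicotine rats the medians were 14.9 and 7.11 FPKM, a log2 difference of -0.99 (SE 0.0912) with an adjusted p of 4.29e-10. The strains were apart in each drug group. The nicotine difference was smaller by 0.27 on the log2 scale (SE 0.129), with an unadjusted p of 0.0435 and an adjusted p of 0.96 for the strain by drug interaction.

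ENSRNOT00000026942, called transcript 2, of 919 bases in the middle library, was 22.5% lower in HIV-1Tg rats. Its FPKM in F344 rats ran from 18.3 to 25.8 with a median of 21.9, and in HIV-1Tg rats from 12.3 to 21.9 with a median of 17.2. All 24 HIV-1Tg rats were below the F344 median and 16 of them below the lowest F344 rat, so the strains overlapped in part. The log2 difference was -0.37 (SE 0.0506), with an adjusted p of 2.58e-05 in limma. It was -0.42 (adjusted p = 0.0034) in nicotine rats and -0.32 (adjusted p = 0.0514) in saline rats, so the saline value missed the adjusted threshold by little. The HIV_Nic values split by rat number: rats 1 to 5 ran from 12.3 to 14.3 FPKM and rats 6 to 12 from 16.6 to 19.7 FPKM. What the numbers stand for is not given by the labels.

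By size, the 12 fell into a group of 5 whose levels were at least 42.1% lower and 7 whose levels were at most 29.1% lower. Transcripts 1, 3, 4, 5, and 10 made up the first group. The place of transcript 4 varied with the pseudocount: its log2 difference was -0.88 with 0.01, -0.79 with 0.1, and -0.39 with 1. With a pseudocount of 1 it was nearer to 0 than that of transcript 12, at -0.42. Transcript 3, whose assembled length varied between libraries from 832 to 4178 bases, had a median of 6.5 FPKM in F344 rats (1.94 to 9.51) and 3.16 FPKM in HIV-1Tg rats (0.89 to 4.42), and was 54.7% lower. Transcript 5, the single tested isoform of a gene with 3, had a median of 22.4 FPKM in F344 rats (2.3 to 29.2) and 10.3 FPKM in HIV-1Tg rats (1.2 to 15.1), and was 58.3% lower. In both, all 24 HIV-1Tg rats were below the F344 median. Above the highest HIV-1Tg rat lay 21 of 24 F344 rats for transcript 3 and 23 of 24 for transcript 5, so that few F344 rats, 1 for transcript 5, fell among the HIV-1Tg values. The untested isoforms of the gene of transcript 5 were above 0.01 FPKM in 6 and 5 HIV-1Tg rats, and in 1 F344 rat each. Summed per gene, the log2 difference was -1.08 (adjusted p = 0.00467 in limma), against -1.26 for transcript 5 alone. Transcripts 4 and 10 were scarce: transcript 4 averaged 1.12 ± 0.273 FPKM in F344 and 0.62 ± 0.21 FPKM in HIV-1Tg rats (SD, n = 24 each), and transcript 10 averaged 2.82 ± 0.835 and 1.67 ± 0.702 FPKM. Their Cufflinks intervals were wide, with a median half-width of 59.8% and 54.8% of the value in a library, against 11.7% for transcript 5.

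The other 7 (transcripts 2, 6, 7, 8, 9, 11, and 12) had assembled lengths with medians from 399 to 919 bases, and transcripts 1, 4, and 10 of the first group were also short, at 780, 703, and 397 bases. The median over all transcripts tested was 2014.5 bases. Transcript 7 was the most abundant of the 12, with a median of 334 FPKM in F344 rats (280 to 409) and 300 FPKM in HIV-1Tg rats (239 to 332), and was 12% lower. Transcript 11 was 10.1% lower, with a median of 93 FPKM in F344 rats (83.3 to 109) and 84 FPKM in HIV-1Tg rats (71.2 to 99.2). These were small shifts of whole groups: all 24 HIV-1Tg rats were below the F344 median for transcript 7 and 23 of 24 for transcript 11, yet most HIV-1Tg rats lay inside the F344 range. Transcripts 6, 8, and 9 had medians of 37.2, 72.8, and 36.6 FPKM in F344 rats and 32.6, 63.6, and 31 FPKM in HIV-1Tg rats. Transcript 12 had medians of 6.38 and 4.34 FPKM, and 2 of 24 HIV-1Tg rats lay above the F344 median.

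**Figure D1:**
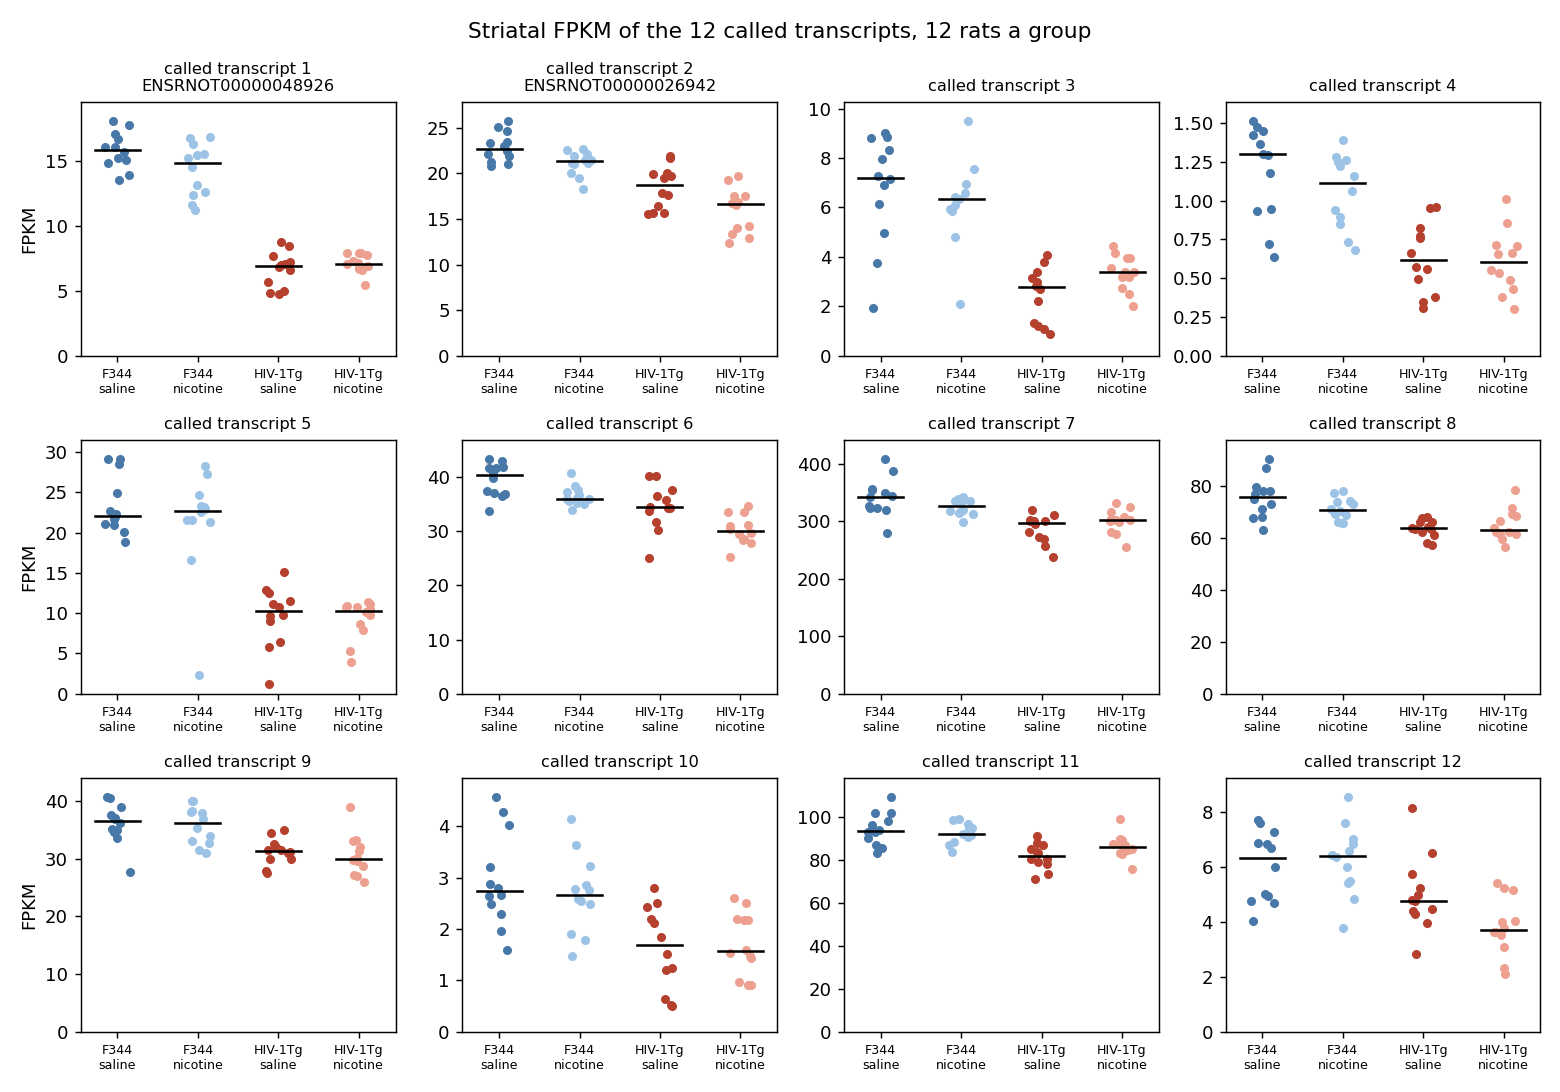
FPKM of the 12 called transcripts in the STR, in 12 panels with a linear axis from 0. Each point is 1 rat, the columns are F344 saline, F344 nicotine, HIV-1Tg saline, and HIV-1Tg nicotine rats (12 each), and the line is the group median. The strains are fully apart for called transcript 1, while for the others a part of the HIV-1Tg points lies at the height of F344 points.

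Some of the 12 calls were lost under other treatments of scaling, depth, and cell entries. When each library was scaled to the same median, transcripts 1 to 5 stayed called, transcripts 6 to 12 had adjusted p from 0.0564 to 0.214 in limma, and 2 transcripts higher in HIV-1Tg rats were called. The log2 differences of those that lost the call moved slightly toward 0, such as -0.8 and -0.76 for transcript 10, -0.5 and -0.46 for transcript 12, and -0.18 and -0.15 for transcript 7 before and after scaling. With relative depth as a covariate, transcripts 1, 2, 3, and 5 stayed called and the other 8 had adjusted p from 0.0698 to 0.257. The SE of the 12 was then 1.15 to 1.21 times as large, while the log2 difference stayed close for most, such as -0.18 and -0.2 for transcript 7 and -0.8 and -0.85 for transcript 10 without and with the covariate. It was nearer to 0 for transcript 4 (-0.79 and -0.65) and transcript 6 (-0.24 and -0.18), and further from 0 for transcript 5 (-1.26 and -1.47). Where a cell of the tables holds several entries, their sum was used, whereas the study's methods average several records of a transcript. With the mean of the entries, transcript 6 was at -0.11 with an adjusted p of 0.775 in limma and transcript 7 at -0.39 with an adjusted p of 0.0864, and the other 10 stayed called. With the first entry, transcript 6 was at -0.15 with an adjusted p of 0.692, and the other 11 stayed called.

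The second question was which differences held in saline and nicotine rats separately. The saline and nicotine comparisons share no rats, whereas the pooled value is the mean of both and adds no support to either. In saline rats 9 transcripts (0.0642%) passed the adjusted threshold, 6 lower (0.0428%) and 3 higher in HIV-1Tg rats. In nicotine rats 4 (0.0285%) passed it, all 4 lower. Both counts depended on single libraries: with 1 library left out, the saline count ran from 3 (without F344_Sal rat 1 or 6, or HIV_Sal rat 5) to 30 (without HIV_Sal rat 1), and the nicotine count from 2 to 6. The 12 called transcripts were lower in HIV-1Tg rats in both drug groups, and for 11 of the 12 the unadjusted p was under 0.05 in both. Of all transcripts tested, 78 (0.557%) were lower in both with an unadjusted p under 0.05. The exception was transcript 12, at -0.28 (unadjusted p = 0.0711 in limma) in saline rats and -0.71 (unadjusted p = 1.94e-05) in nicotine rats. With a fold change over 1.2 also asked for in both drug groups, 6 of the 12 remained. These counts describe the 12, which were picked on the mean of the same values.

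Of the 12, 6 passed the adjusted threshold in saline rats (transcripts 1, 3, 4, 5, 7, and 8) and 2 in nicotine rats (transcripts 1 and 2). Transcript 3 showed the widest gap among these, at -1.46 (SE 0.235) in saline and -0.82 (SE 0.235) in nicotine rats. The interaction test gave an adjusted p of 0.96 for it. Over all 14012 transcripts 0 passed the adjusted threshold for the interaction in limma, with 695 (4.96%) at an unadjusted p under 0.05, and 0 in an ANOVA per transcript. The count was 22 with outlying values removed, a step that narrows the spread by construction, and 1 each with the filter on either strain, without a filter, with the mean FPKM required to reach 1, without F344_Nic rat 7, and without HIV_Nic rat 7.

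Another 5 transcripts were called in a drug group but not in the pooled comparison. Saline rats had 3 of them, all higher in HIV-1Tg rats, and in nicotine rats their log2 differences were 0.05, 0.12, and -0.17. ENSRNOT00000020314, of 1586 bases, led them with a median of 0.208 FPKM in F344_Sal rats (0.175 to 0.317) and 0.638 FPKM in HIV_Sal rats (0.144 to 1.06). In F344_Nic and HIV_Nic rats its medians were 0.192 and 0.222 FPKM. The log2 difference of ENSRNOT00000020314 was 1.1 (SE 0.181, adjusted p = 0.00113 in limma) in saline and 0.05 (SE 0.181, adjusted p = 0.997) in nicotine rats, with an adjusted p of 0.421 for the interaction. The level was low and the spread in HIV_Sal rats wide, and the lowest HIV_Sal rat lay below the lowest F344_Sal rat. This spread went with rat number: HIV_Sal rats 2 to 7 ran from 0.799 to 1.06 FPKM and rats 8 to 12 from 0.27 to 0.477 FPKM, and rat 1 was at 0.144 FPKM. The median half-width of its Cufflinks interval was 72.6% of the value. Nicotine rats had 2 of them, both lower in HIV-1Tg rats, at -2.03 and -0.39 in nicotine and -0.18 and -0.06 in saline rats.

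ENSRNOT00000056174 and ENSRNOT00000020314 came closest to the threshold among transcripts with higher levels in HIV-1Tg rats, both with an adjusted p of 0.0528 in limma. Both passed it with median scaling (adjusted p of 0.039 and 0.0389 in limma, in that order), where they were the 2 higher calls. Both also passed it with a pseudocount of 1, with outlying values removed, in an ANOVA per transcript, and with the factor for rats 1 to 6 and 7 to 12. With 1 library left out, ENSRNOT00000056174 was called in 11 and ENSRNOT00000020314 in 14 of 48 cases. ENSRNOT00000056174 had a median of 0.931 FPKM in F344 rats (0.312 to 1.55) and 1.34 FPKM in HIV-1Tg rats (0.597 to 2.66). Its log2 difference was 0.68 in saline and 0.65 in nicotine rats, with an unadjusted p of 0.911 in limma for the interaction, and the strains overlapped from 0.597 to 1.55 FPKM.

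The lists at a fold change over 1.2 and an unadjusted p under 0.05 in limma were longer. The study's methods ask for the same fold change, but after outlier removal, an ANOVA, and a Tukey-Kramer test, and that post-hoc test was not run here. By the limma rule 884 transcripts (6.31%) differed between the strains in saline rats and 834 (5.95%) in nicotine rats. Of these, 64 passed the rule in both with the same direction, 43 lower and 21 higher in HIV-1Tg rats, and 19 passed in both with opposite directions. The 64 are 7.24% of the saline list and 7.67% of the nicotine list. With outlying values removed, which narrows the spread by construction, 245 of 13543 transcripts passed in both with the same direction. With the filter on either strain, 97 of 16703 did. By direction, 8.08% of the 532 transcripts lower in saline HIV-1Tg rats were also lower by the rule in nicotine rats, as were 3.7% of all transcripts tested, and 5.97% of the 352 that were higher were also higher, as were 2.25% of all tested. Direction was shared by 61% of the saline list, 63.2% of the nicotine list, and 54.6% of all transcripts tested. Across the 14012 transcripts, which are not independent replicates, the log2 differences of saline and nicotine rats had a Pearson r of 0.07.

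**Figure D2:**
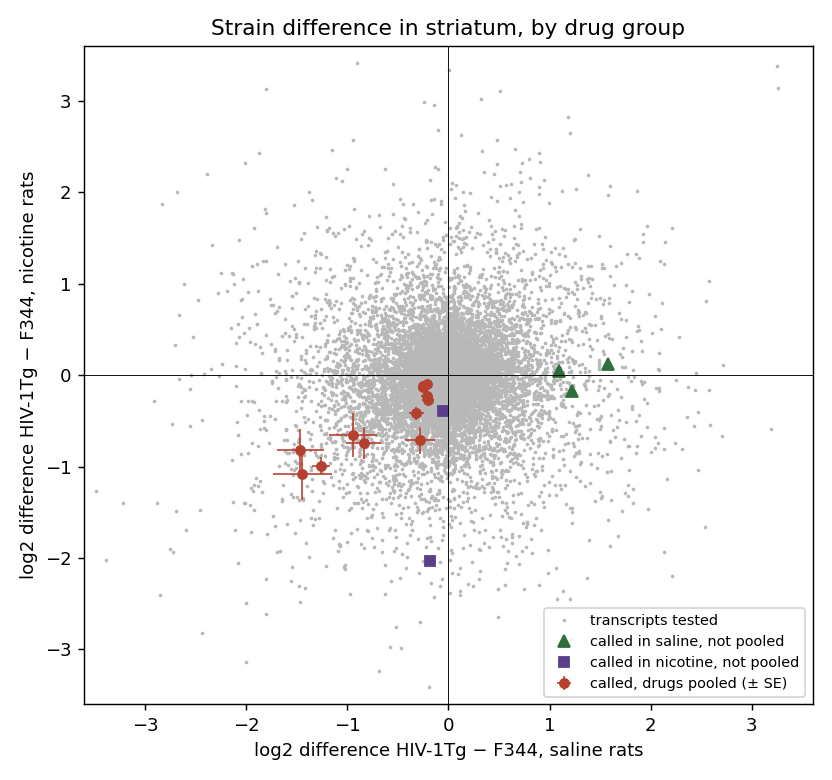
Log2 difference of HIV-1Tg from F344 rats in saline rats (x axis) against that in nicotine rats (y axis), 1 point for each of the 14012 transcripts tested, of which 5 lie outside the axes. Red points with SE bars are the 12 called transcripts, all below 0 on both axes, green triangles the 3 called in saline rats alone, near 0 on the y axis, and purple squares the 2 called in nicotine rats alone.

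With the drugs pooled, 883 transcripts (6.30%) passed the unadjusted rule, 585 lower and 298 higher in HIV-1Tg rats, and 66.3% were thus lower. After median scaling the split was 432 lower and 421 higher, or 50.6% lower. The median log2 difference over all transcripts tested was -0.04 before scaling. Median scaling centres these differences by construction, so the balance of this list is largely set by the scaling chosen.

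The tilt toward lower levels grew with abundance. Among the 279 transcripts with a mean of 100 FPKM or more, 15.1% had an unadjusted p under 0.05 with lower levels in HIV-1Tg rats and 2.15% with higher levels. Among the 3534 with a mean under 1 FPKM the shares were 5.55% and 3.42%. Median scaling brought the shares to 8.24% and 2.87% among the most abundant, and to 4.07% and 5.29% among the scarcest, and it shifts all transcripts of a library alike. The median SE of the pooled log2 difference was 0.143 in the most abundant class, 0.165 from 10 to 100 FPKM, 0.291 from 1 to 10 FPKM, and 0.202 under 1 FPKM. Transcripts with a value above 0 in all 48 libraries had a median SE of 0.124 and held all 12 adjusted calls, and the 8475 others had a median SE of 0.361 and held 0 adjusted calls in limma. Under the unadjusted rule the shares were near each other, 6.81% of the former and 5.97% of the latter.

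**Figure D3:**
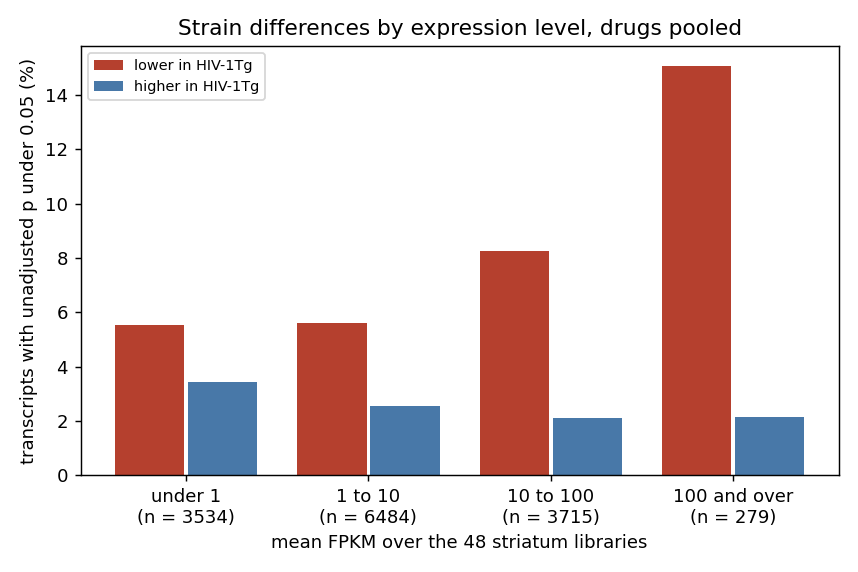
Share of transcripts with an unadjusted p under 0.05 in the pooled strain comparison (y axis, percent) by mean FPKM over the 48 libraries (x axis, 4 classes with their numbers of transcripts). Red bars are transcripts lower and blue bars those higher in HIV-1Tg rats, before median scaling: the red bar rises to 15.1% in the class of 100 FPKM and over, where the blue bar is 2.15%.

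A transcript that is nearly silent in a strain does not enter the test above. With the filter set instead at 12 or more of the 24 rats of either strain with an FPKM above 0.01, 16703 transcripts were tested and 17 (0.102%) were called, the same 12 and 5 more, 4 lower and 1 higher in HIV-1Tg rats. Of these 5, 3 met the filter through their F344 rats alone, so they entered because of the difference that was then tested, and their calls are a description without support from the test. By number of HIV-1Tg rats, the scarcest of the 5 had an FPKM above 0.01 in 14 F344 and 1 HIV-1Tg rats, and the next in 17 F344 and 3 HIV-1Tg rats, with 0 of 12 HIV_Sal rats in both. In the latter, levels were high where it was present, with a median of 19.2 FPKM in F344 rats and listed at 0 in the median HIV-1Tg rat. The one that was higher had a value above 0.01 in 13 F344 and 23 HIV-1Tg rats. None of the 5 separated the strains, and no transcript was above 0.01 in at least 20 rats of a strain and in at most 4 of the other. An exact 0 can also be a failed estimate of Cufflinks among isoforms, which was not tested. Of these 5, 4 belong to genes with more than 1 isoform, whereas 68.8% of the 14012 transcripts tested above were the sole isoform of their gene.

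The 12 called transcripts were then examined in the prefrontal cortex (PFC) and hippocampus (HIP), in a fit of all 144 libraries. By the study's methods all regions were punched from each brain, so the libraries come from 48 rats, and a difference seen in several regions is not seen in separate animals. The labels do not pair libraries by rat, and the fit treats them as separate. Transcripts 1, 3, 4, 5, and 10 were lower in HIV-1Tg rats in all 3 regions at an adjusted p under 0.05, a threshold passed by 0.251% of transcripts in the STR, 5.36% in the PFC, and 0.0753% in the HIP. ENSRNOT00000048926 had log2 differences of -1.12 (SE 0.0737) in the STR, -1.03 (SE 0.0737) in the PFC, and -0.96 (SE 0.0737) in the HIP. Transcript 5 had -1.26, -1.43, and -1.45. For each of the 5 the difference between the STR and the mean of the other regions missed the adjusted threshold, with adjusted p from 0.382 to 0.879 in limma, and for ENSRNOT00000048926 it was -0.13 (SE 0.0903).

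The other 7 transcripts were not called in the HIP, where their log2 differences lay between -0.05 and 0.19. For 3 of them, transcripts 2, 9, and 12, the STR difference stood apart from the mean of the PFC and HIP at an adjusted p under 0.05, as it did for 2.51% of transcripts. The difference of differences was -0.79 (SE 0.121, adjusted p = 8.25e-06 in limma) for ENSRNOT00000026942, -0.36 (SE 0.0814, adjusted p = 0.00269) for transcript 9, and -0.95 (SE 0.209, adjusted p = 0.00155) for transcript 12. In the PFC, their log2 differences were 1.86, 0.66, and 1.91 in nicotine rats and -0.11, -0.13, and -0.47 in saline rats. The part of nicotine in this was not tested. In the PFC, ENSRNOT00000026942 had a median of 18 FPKM in F344_Sal, 4.21 FPKM in F344_Nic, 17.9 FPKM in HIV_Sal, and 17.2 FPKM in HIV_Nic rats. Its F344_Nic rats were thus the low group there, whereas in the STR F344_Nic rats had a median of 21.3 FPKM. In saline rats alone, 0 of the 12 passed the same test in limma (12 of all 11948 transcripts did, or 0.1%), each with an adjusted p of 0.852 or more. In nicotine rats alone, 4 of the 12 passed it, as did 3.70% of all transcripts: ENSRNOT00000026942 at -1.41, transcript 6 at -0.50 (adjusted p = 0.0108 in limma), transcript 9 at -0.60, and transcript 12 at -1.86. No called difference was thereby shown to be particular to the STR of saline rats, and the 7 were not called in the STR in this fit either, in which all regions share an estimate of the spread.

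**Figure D4:**
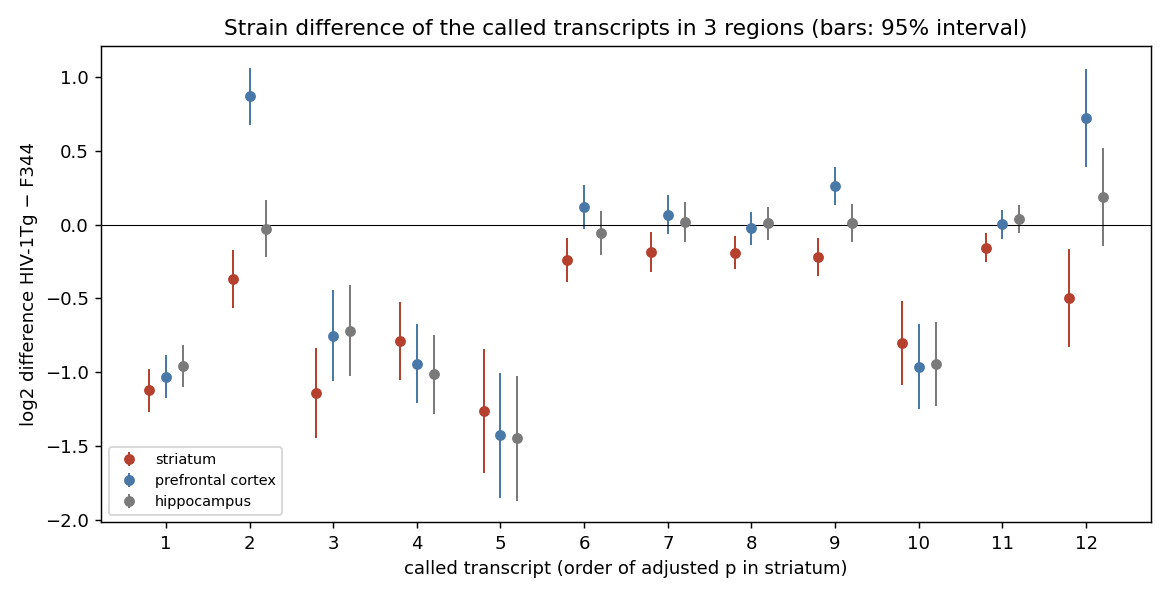
Log2 difference of HIV-1Tg from F344 rats (y axis, with bars of the 95% interval) for the 12 called transcripts in the order of their adjusted p (x axis), in the STR (red), PFC (blue), and HIP (grey), 48 libraries a region. Transcripts 1, 3, 4, 5, and 10 lie below 0 in all 3 regions, and transcripts 2, 6, 7, 9, 11, and 12 lie above 0 in the PFC and below 0 in the STR, of which 2, 9, and 12 were called in the PFC. Without PFC libraries HIV_Nic rats 10 and 11, transcript 7 was below 0 in the PFC and transcript 9 was not called there.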

How the data were processed

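RNA from dorsal striatum of 48 rats was sequenced. Reads were aligned to the rat genome Rn4 with TopHat and Bowtie (1.04 per the submitters' processing notes), and Cufflinks measured each transcript. The authors deposited tables whose cells pack the FPKM with its interval, coverage, and length. FPKM is already divided by length and mapped fragments, so read numbers are unknown and no counting error can be given. Rows with class code "=" were kept, and cells with several entries (0.335% in F344) were summed, which bears on called transcripts 6 and 7. Every column was mapped to strain, drug, region, and rat by its name, and 0 were left unused.

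Log2(FPKM + 0.1) was fitted with limma 3.58.1 in R 4.3.3, with the 4 group means, a trended prior, and two-sided tests. A fold change on this scale understates the change of scarce transcripts. Missing cells were not fitted, and no called transcript had any. Adjustment was Benjamini-Hochberg over all transcripts tested. The study's methods give sex as the second factor of the ANOVA, but the groups differ in strain and drug, which were used here. The fit was tested on simulated data.

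The transcripts and lists were chosen with earlier results of these data known. Named transcripts were those called in both drug groups, the 15 of smallest adjusted p in each direction, and up to 5 for the interaction and for region, with identifiers printed for at most 2 in each direction. The gene lists and markers that had been planned were not analysed here, because no table used here pairs these identifiers with gene names, and for the same reason no sequence is shown. Alternatives covered pseudocounts, filters, outliers, ANOVA, scaling, additive terms, weights, depth, missing values, gene sums, the replicate block, and leaving out each library. The first and the mean of the cell entries, the libraries lying apart, rats 1 to 6 against 7 to 12, and the drug groups and PFC libraries of the region test were added after seeing the data.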

Additional observations from a re-analysis of the deposited data

Results flagged for a closer look

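The strain difference of 3 called transcripts differed between regions in the limma interaction test. For ENSRNOT00000026942 the log2 difference in the STR minus the mean of PFC and HIP was -0.79, for called transcript 9 it was -0.36, and for called transcript 12 it was -0.95, with 12 rats in each group of each region. In nicotine rats of the PFC the log2 differences of the same 3 were 1.86, 0.66, and 1.91, and in saline rats of the PFC they were -0.11, -0.13, and -0.47. PFC libraries HIV_Nic rats 10 and 11 had the lowest median correlations with the other PFC libraries, 0.643 and 0.737, and without both the 3 values were -0.74, -0.3, and -0.88, with adjusted p of 3.54e-06, 0.000782, and 0.00214 in limma. Without both, called transcript 11 also passed, at -0.18 with an adjusted p of 0.00357, against 0.118 with all libraries. In the PFC itself, transcript 9 then lost its call, at 0.16 (adjusted p = 0.057 in limma) against 0.26 (adjusted p = 0.0031) with all libraries. Transcript 7 turned there from 0.07 to -0.07. The next lowest PFC correlations, 0.775 and 0.781, were those of F344_Nic rats 6 and 1, and no F344_Nic library was left out. Leaving out HIV_Nic rats thus does not bear on the low F344_Nic values of the 3 transcripts in the PFC. The part of nicotine in the PFC in these region differences was not tested further.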

How the results depend on the processing

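The 12 calls of the pooled comparison became 19 with a pseudocount of 1, 401 (299 lower) with outlying values removed, 41 (34 lower) in an ANOVA per transcript, 7 with median scaling, 23 with array weights, 5 with a depth covariate, 7 with the replicate block, 21 without the pair of libraries that lie apart, and 19 with a factor for rats 1 to 6 and 7 to 12. The removal of outlying values within groups narrows the spread by construction. The 9 calls in saline rats became 22, 181, and 26 with a pseudocount of 1, outlying values removed, and ANOVA, 14 with a mean FPKM of at least 1, median scaling, or array weights, 17 without that pair, and 19 with the factor. The 4 calls in nicotine rats became 134 with outlying values removed and 8 in ANOVA. The 0 calls for the interaction became 22 with outlying values removed and 1 each with the filter on either strain, without a filter, or with a mean FPKM of at least 1. The 1 transcript called in both drug groups became 10 with outlying values removed and 2 with a pseudocount of 1, a mean FPKM of at least 1, ANOVA, or the factor. The 300 calls for strain by region became 12 in saline rats alone. The cause was not tested for the rest of these. Across these alternatives the direction of the 12 did not turn, and transcripts 1, 2, 3, and 5 were called under all 18. With the mean over the entries of a cell, transcripts 6 and 7 were at adjusted p of 0.775 and 0.0864, and with the first entry transcript 6 was at 0.692. The additive model gives the pooled comparison only.

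Leaving out each of the 48 libraries gave 9 to 38 calls in the pooled comparison: 38 without F344_Sal rat 10, 32 without F344_Sal rat 9, 25 and 24 without HIV_Nic rats 10 and 12, 23 without F344_Nic rat 6, and 20 and 19 without HIV_Sal rats 1 and 12. Counts ran from 3 (without F344_Sal rats 1 or 6 or HIV_Sal rat 5) to 30 (without HIV_Sal rat 1) in saline rats, and were 5 and 20 without HIV_Sal rats 4 and 12, 14 and 21 without F344_Sal rats 9 and 10, 16 without F344_Nic rat 12, and 18 without HIV_Nic rat 10. They ran from 2 (without any of F344_Nic rats 1, 2, 3, 5, 7, 10, and 12 or HIV_Nic rats 4 and 5) to 6 in nicotine rats, from 0 to 1 for the interaction (1 without F344_Nic rat 7 or HIV_Nic rat 7), and from 1 to 2 for both drug groups (2 without F344_Nic rat 9, HIV_Nic rats 2 or 10, or HIV_Sal rats 1, 8, or 12). Transcripts 1 to 9 stayed called throughout, and transcripts 10, 11, and 12 lost the call in 3, 9, and 14 of the 48, at adjusted p of up to 0.0521, 0.059, and 0.0606.

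Same-numbered rats of the strains share only a number: their deviations correlated between -0.0608 and 0.0515 in 24 pairs. With the replicate block transcripts 8 to 12 lost the call, and the counts were 6 in saline rats, 4 in nicotine rats, 0 for the interaction, and 296 for strain by region. Unknown read numbers limit all statements on scarce transcripts.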

Other observations

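Some locus numbers of called transcripts lie close together in the tables. Called transcript 3 carries locus number 8812, and 2 of the 5 transcripts that were called when the filter asked for presence in either strain carry 8814 and 8854, among 27579 loci with numbers up to 72034. Called transcript 3 and the transcript at 8814 were lower in HIV-1Tg rats, and the transcript at 8854 was higher. The tables give no coordinates, so whether neighbouring numbers are neighbouring places was not tested, and the closeness was noticed after the values were seen.

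The top 5 transcripts for strain by drug, none past the adjusted threshold, included 4 whose strain difference changed sign between the drug groups. The first had medians of 25.1 FPKM in F344_Sal, 18.4 FPKM in HIV_Sal, 15.5 FPKM in F344_Nic, and 26.5 FPKM in HIV_Nic rats, with an adjusted p of 0.278 in limma.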
